A study of Mus musculus with 23 samples.

Results

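Matrix metalloproteinases (MMPs) and the tissue inhibitors of metalloproteinases (TIMPs) were examined in RNA-Seq of mouse lung. The members were 7 MMPs (Mmp2, Mmp3, Mmp8, Mmp9, Mmp12, Mmp14 and Mmp19) and 3 TIMPs (Timp1, Timp2 and Timp3). They were found by gene symbol, and they were 10 of the 35322 genes listed. All 10 passed the filter on low values, which left 16795 genes to test. The 23 libraries came from lung homogenates of female Balb/c offspring aged 13 weeks, 1 library per animal. Sham (n = 7) were offspring of dams given intranasal saline before mating, in gestation and until weaning, and PM (n = 7) were offspring of dams given PM2.5, fine air pollution particles, over the same period. Neither of these groups was challenged with OVA (ovalbumin). By the study's methods the animals breathed nebulised saline, while the sample labels name PBS. Sham-OVA (n = 5) and PM-OVA (n = 4) had the same maternal treatments and were sensitised to OVA with aluminium hydroxide and then challenged with nebulised OVA, a model of allergic airway disease (AAD). Every animal had also undergone a lung function test with methacholine. The offspring themselves were not given PM2.5, and the litter of each animal was not given in the sources used here, so animals of 1 group may share a dam and p-values measure the spread between these animals.

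MMPs are zinc-dependent endopeptidases that cut collagens, elastin, laminins and other matrix proteins, as well as cytokines and cell surface proteins. Most are secreted as inactive proenzymes, and TIMPs bind the active site and block it. In the lung, macrophages, neutrophils, fibroblasts and epithelial cells each make a different set of these genes, and the balance of proteases and inhibitors is studied in emphysema, asthma and fibrosis. The level of a transcript says nothing of whether the enzyme was activated.

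Mmp3, Mmp8 and Mmp12 belong to a cluster of Mmp genes on chromosome 9, and the other members lie apart. In the GRCm38 annotation the plus strand carries Mmp12 at chr9:7344381-7369499, Mmp3 at chr9:7445822-7455975 and Mmp8 at chr9:7558456-7568485. Mmp2 lies at chr8:92827291-92853420, Mmp9 at chr2:164940780-164955850, Mmp14 at chr14:54431612-54445364 and Mmp19 at chr10:128790910-128800824. Timp1 lies at chrX:20870166-20874735 inside Syn1, and Timp3 at chr10:86300372-86349506 inside Syn3, each on the strand opposite to its host. Timp2 is on the minus strand at chr11:118301069-118355740, and Cep295nl lies within it on the same strand. Syn3 was low beside Timp3, at 0 to 3.07 RPM (reads per 1000000 reads). Syn1, at 0.201 to 11.5 RPM, overlapped the range of Timp1 in Sham (2.26 to 9.20 RPM). Whether the counting used strand was not stated, so reads of a gene and its antisense partner could not be told apart. This touches Timp1 and Timp3, Mmp19 with Tmem198b (3.11 to 28.9 RPM) across its last bases, and Mmp12 with Mmp1b, which was listed at 0 in every library.

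The 3 neighbours of the chromosome 9 cluster are shown by their promoters, because Mmp12 on one side and Mmp3 and Mmp8 on the other had changes of opposite sign after OVA. RefSeq windows (GRCm38.p6) from 250 bases before to 50 bases after the gene start were found for 7 of the 10 members, and not for Mmp2, Mmp9 or Mmp19. Capitals mark the AP-1 motif TGANTCA and the TATA motif TATAAA, searched on both strands. The windows are chr9:7347124-7347423 for Mmp12 (the downstream one of its 2 starts), chr9:7445572-7445871 for Mmp3 and chr9:7558179-7558478 for Mmp8, all on the plus strand.
Mmp12: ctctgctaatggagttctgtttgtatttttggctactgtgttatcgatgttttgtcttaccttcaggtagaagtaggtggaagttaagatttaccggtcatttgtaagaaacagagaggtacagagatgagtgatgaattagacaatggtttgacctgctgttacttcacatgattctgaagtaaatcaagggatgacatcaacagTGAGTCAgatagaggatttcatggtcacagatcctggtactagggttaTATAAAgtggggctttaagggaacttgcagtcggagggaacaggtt
Mmp3: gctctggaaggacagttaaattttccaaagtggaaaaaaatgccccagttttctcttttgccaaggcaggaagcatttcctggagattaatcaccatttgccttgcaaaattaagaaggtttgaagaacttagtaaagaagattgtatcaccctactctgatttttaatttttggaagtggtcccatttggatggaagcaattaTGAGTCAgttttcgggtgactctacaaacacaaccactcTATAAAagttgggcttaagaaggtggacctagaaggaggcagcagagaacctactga
Mmp8: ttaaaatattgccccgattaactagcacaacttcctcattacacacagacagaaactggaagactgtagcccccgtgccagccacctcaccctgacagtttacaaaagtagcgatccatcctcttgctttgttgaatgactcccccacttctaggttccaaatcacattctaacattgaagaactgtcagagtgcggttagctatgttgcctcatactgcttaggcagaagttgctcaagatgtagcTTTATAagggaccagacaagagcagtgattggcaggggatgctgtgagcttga

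Mmp12 and Mmp3 both held the AP-1 match TGAGTCA, from -44 to -38 and from -46 to -40 relative to their starts. Both also held a TATAAA, from 4 to 9 in Mmp12 and from -7 to -2 in Mmp3. Mmp8 held TATAAA on the minus strand, from -3 to 2, and no AP-1 match. Of 32851 windows of this length, 7.81% held TGANTCA and 13.6% held TATAAA. The STAT motif (TTC and GAA with 4 bases between), held by 6.95% of windows, was in none of the member windows, and the windows of Timp1, Timp2, Timp3, Mmp14 and the upstream start of Mmp12 held none of the 3 motifs. Mmp12 rose after OVA and Mmp3 fell. Which start of Mmp12 was used, and the part of these motifs in either change, was not tested.

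The depth of the libraries differed between saline and OVA animals. Reads on genes ran from 13089691 to 17393579 in the saline libraries and from 2298645 to 12355561 in the OVA libraries, where 1 read was worth up to 0.311 RPM. Of the 23 libraries, 4 were treated as standing apart from their groups. Sham replicate 1 had 0.289 RPM of Xist and 54.0 RPM of the Y-linked Eif2s3y, against its female label. PM replicate 5 had the lowest sum of capillary endothelial markers (1002 RPM) and the highest sum of fibroblast markers (8517 RPM) of any library. It also had the highest smooth muscle sum of the saline libraries (1582 RPM). Sham-OVA replicate 3 was the shallowest, with the lowest fibroblast sum (1368 RPM) and the highest cardiac muscle sum (361 RPM) of any library. PM-OVA replicate 1 had the lowest mean correlation with the other libraries of its group (0.9196) and the highest sum of fibroblast markers of the OVA libraries (5019 RPM). The first 3 were left out together and PM-OVA replicate 1 by itself, and values are given where a result moved. Sham replicate 3 was not among the 4 and was left out only by itself. It had the lowest mean correlation with its group of the saline libraries (0.9758) and the highest mesothelial sum of any library (1071 RPM). OVA libraries also held fewer reads of long genes: the median log2 fold change in Sham-OVA against Sham was 0.07 in the shortest 20% of genes and -0.99 in the longest 20%. Over all genes that median was -0.48 there and -0.43 for PM-OVA against PM. With quantile scaling it was -0.05 and -0.02, and the split of all calls went from 3453 higher and 7978 lower to 5484 and 5812 in the first comparison, and from 3379 and 7589 to 5288 and 5445 in the second. Log2 fold changes of the members are best read against these medians.

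The first comparison asked how OVA challenge altered these genes in offspring of saline dams. Mmp12, Timp1, Mmp19 and Mmp14 rose and Timp3 and Mmp3 fell in Sham-OVA against Sham, at an adjusted p under 0.05 in limma with Benjamini-Hochberg adjustment over all genes tested. Thus 4 of 10 members were called higher, where 20.6% of all genes tested were, and 2 of 10 were called lower, where 47.5% of all genes were. With quantile scaling the members stayed at 4 and 2, and the shares of all genes became 32.7% and 34.6%. With the length trend removed they were again 4 and 2, beside 32.3% and 32.9%. The median log2 fold change of the members was 0.16. At the study's threshold, an adjusted p under 0.000001 with an absolute log2 fold change above 1, limma called Mmp12 and Timp1 higher and none lower. This stood beside 1.98% and 2.53% of all genes (333 and 425). These counts over all genes moved widely, to 961 and 2124 without Sham-OVA replicate 3, to 2348 and 2513 in DESeq2 and to 5 and 0 with the replicate number as a block, and leaving out any other single library except Sham replicate 3 lowered one of them by more than 1.5 times, to as few as 130 and 146. Mmp12 was called in each of these, and Timp1 in each but the fit with the block. With no filter on low values Timp1 was not called either.

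**Figure D1:**
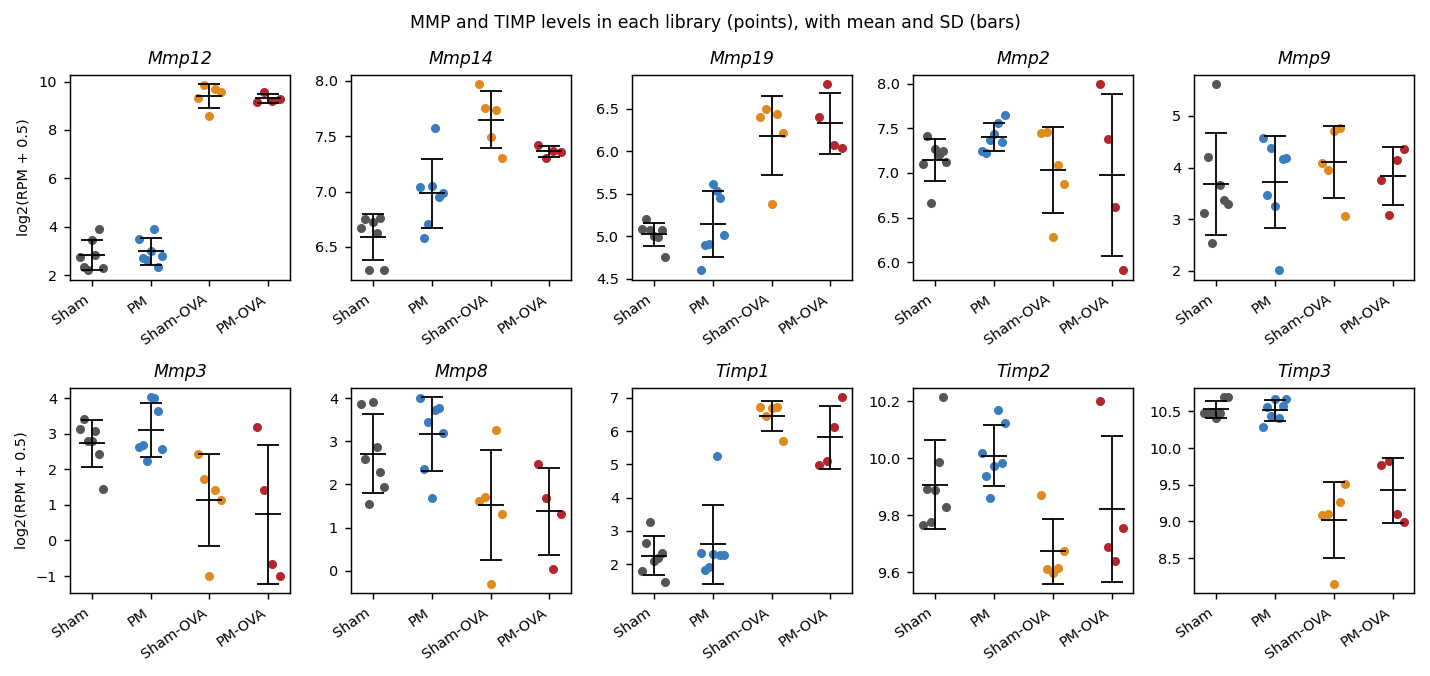
Level of each member as log2(RPM + 0.5) in every library of the 4 groups (points), with the group mean and SD (bars); each panel has its own vertical scale, which does not start at 0. Mmp12 and Timp3 separate the saline from the OVA groups, and Mmp2, Mmp9 and Timp2 overlap.

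Mmp12, the macrophage elastase, had the largest change of any member. In Sham it ran from 4.17 to 14.5 RPM with a median of 6.29. In the 5 Sham-OVA libraries it was 645, 919, 378, 821 and 768 RPM. The lowest Sham-OVA library was thus far above the highest Sham library, and the mean was 96.9 times higher. The log2 fold change was 6.57 ± 0.30 (SE, adjusted p = 1.20e-09), the 12th largest rise of all genes tested. The lowest of the Sham-OVA values was that of the shallow replicate 3 (1218 reads). The part of its depth or of its cell markers in this value was not tested.

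Timp1, a secreted inhibitor that is low in resting lung and also binds pro-MMP9, rose beside it. It ran from 2.26 to 9.20 RPM in Sham (median 4.01), and the Sham-OVA libraries had 105, 86.7, 104, 104 and 51.6 RPM. The groups did not overlap, and replicate 5 was the lowest of the challenged animals. Timp1 rose by a log2 fold change of 4.21 ± 0.29 (SE, adjusted p = 3.49e-08), to a mean 19.5 times that of Sham.

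Mmp14, a membrane-anchored protease that activates pro-MMP2, ran from 77.6 to 108 RPM in Sham with a median of 101. The Sham-OVA libraries had 251, 215, 180, 212 and 157 RPM, all above the Sham libraries. It rose by a log2 fold change of 1.06 ± 0.15 (SE, adjusted p = 2.07e-05). Mmp19, a secreted protease of basement membrane components, ran from 26.6 to 36.2 RPM in Sham (median 33.1). It was at 84.2, 89.7, 41.0, 86.5 and 73.5 RPM in Sham-OVA, where replicate 3 lay closest to the Sham range. Its log2 fold change was 1.16 ± 0.18 (SE, adjusted p = 6.31e-05), so both genes were slightly more than 2-fold higher.

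Timp3, the inhibitor that stays bound to the matrix and also restrains ADAM and ADAMTS proteases, moved the other way to Timp1. It was among the most abundant members in Sham, at 1356 to 1657 RPM (median 1429). In Sham-OVA it was 545, 548, 283, 612 and 731 RPM, and every challenged library was below every Sham library. It fell with a log2 fold change of -1.51 ± 0.20 (SE, adjusted p = 1.52e-05). Timp3 has 8144 bp of merged exons and belongs to the longest 20% of genes, whose median was -0.99. With the trend on gene length removed, its log2 fold change was -0.67 (adjusted p = 0.000723).

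Mmp3 (stromelysin-1), which cuts proteoglycans and activates other MMPs, was a low gene that fell further. It ran from 2.21 to 10.2 RPM in Sham with a median of 6.43, and Sham-OVA had 4.93, 2.78, 0, 2.15 and 1.68 RPM. The groups overlapped, and the value of 0 was that of the shallow replicate 3, where 3 reads would be 0.932 RPM. The fall was a log2 fold change of -1.59 ± 0.49 (SE, adjusted p = 0.00944).

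Mmp8, the collagenase of neutrophil granules, had 2.43 to 14.6 RPM in Sham (median 5.51) and 2.57, 2.78, 0.311, 9.08 and 1.97 RPM in Sham-OVA. Its log2 fold change of -1.20 ± 0.53 (SE) missed the threshold (adjusted p = 0.0588). It was called lower without Sham replicate 3 (-1.39) and without Sham-OVA replicate 4 (-1.63). Mmp9 (gelatinase B), also stored by neutrophils and made by macrophages, ran from 5.33 to 48.7 RPM in Sham and was at 16.6, 14.9, 25.5, 26.9 and 7.81 RPM in Sham-OVA. Its difference of 0.43 had a 95% confidence interval from -0.52 to 1.37 (adjusted p = 0.407), an interval that includes a rise of 2-fold.

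Mmp2 (gelatinase A), a fibroblast enzyme activated on the cell surface by Mmp14 together with Timp2, had 101 to 170 RPM in Sham and 175, 175, 77.7, 136 and 117 RPM in Sham-OVA. The log2 fold change was -0.11 (95% confidence interval -0.53 to 0.31, adjusted p = 0.629), and its sign turned positive under other scalings. Timp2 had 871 to 1187 RPM in Sham and 935, 782, 774, 784 and 816 RPM in Sham-OVA. Its log2 fold change of -0.23 (95% confidence interval -0.52 to 0.05, adjusted p = 0.137) also changed sign with the scaling. Neither gene therefore had a direction in this comparison.

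**Figure D2:**
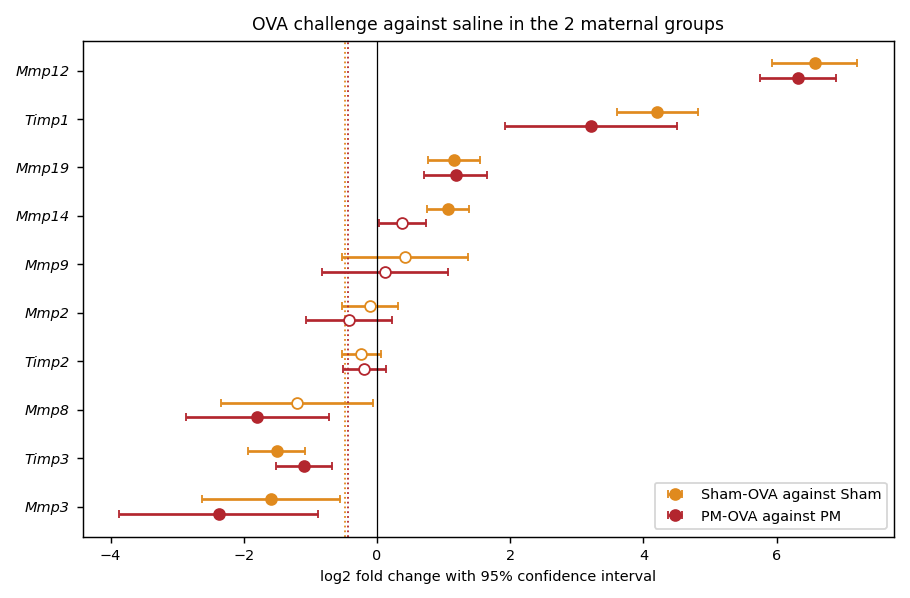
Log2 fold change of each member in Sham-OVA against Sham (orange) and in PM-OVA against PM (red), with 95% confidence intervals; filled points passed an adjusted p of 0.05, and dotted lines mark the median of all genes. Mmp12 stands at 6.57 and 6.32, and Mmp14 is filled in the first comparison only, a difference that did not pass the interaction test.

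In offspring of PM2.5-exposed dams the same question was asked of PM-OVA against PM. Mmp12, Timp1 and Mmp19 rose, and Mmp3, Mmp8 and Timp3 fell. The 3 of 10 members called higher stood beside 20.1% of all genes tested, and the 3 of 10 called lower beside 45.2%. With quantile scaling 4 were called higher and 3 lower, beside 31.5% and 32.4% of all genes. With the length trend removed it was 4 and 2, beside 31% and 30.8%. The median of the members was -0.04 on the log2 scale. At the study's threshold only Mmp12 was called, higher, where 0.262% of all genes were called higher and 0.0238% lower (44 and 4). Without PM-OVA replicate 1 these counts were 177 and 327, without any other single library at most 24 and 1, in DESeq2 1767 and 1084, and with the replicate number as a block both were 0. Mmp12 was called in each of these but the last, and DESeq2 also called Mmp19.

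Mmp12 ran from 4.58 to 14.7 RPM in PM (median 6.32), and the 4 PM-OVA libraries had 573, 761, 587 and 616 RPM. The log2 fold change was 6.32 ± 0.26 (SE, adjusted p = 1.13e-08), the 10th largest rise of all genes tested, and the groups stood as far apart as in the offspring of saline dams.

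Timp1 was less even. In 6 of the 7 PM libraries it lay between 3.07 and 4.61 RPM, and PM replicate 5 had 37.9 RPM. The PM-OVA libraries had 31.3, 34.2, 69.6 and 129 RPM, so this PM library lay within the challenged range. Its log2 fold change was 3.21 ± 0.60 (SE, adjusted p = 0.000634), and without PM replicate 5 it was 3.66 (adjusted p = 2.39e-05). PM replicate 5 was also the highest PM library for Mmp12, Mmp14 and Timp2 and the lowest for Mmp9. The part of its low endothelial and high fibroblast and smooth muscle markers in these values was not tested.

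Mmp19 ran from 23.7 to 48.5 RPM in PM with a median of 31.9, and PM-OVA had 84.5, 110, 66.6 and 65.2 RPM. It rose by a log2 fold change of 1.18 ± 0.22 (SE, adjusted p = 0.000635) without overlap. Mmp14 ran from 95.4 to 190 RPM in PM (median 126), and the PM-OVA libraries had the narrow values of 171, 158, 165 and 164 RPM. They lay above 6 of the 7 PM libraries and below PM replicate 5. The log2 fold change of 0.38 ± 0.17 (SE) missed the threshold (adjusted p = 0.0576), and without PM replicate 5 it was 0.48 and passed. It also passed, at 0.65 to 1.01, under the scalings by quantiles, median of ratios and gene length and in edgeR and DESeq2.

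Timp3 ran from 1254 to 1631 RPM in PM (median 1516), and PM-OVA had 873, 909, 549 and 507 RPM. All 4 were below every PM library, and the log2 fold change was -1.09 ± 0.19 (SE, adjusted p = 0.000445). With the length trend removed it was -0.28 (adjusted p = 0.104) and was no longer called, so in this comparison the fall of Timp3 was close to that of other genes of its length.

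Mmp3 ran from 4.21 to 15.8 RPM in PM (median 5.88) and was at 8.60, 2.16, 0.133 and 0 RPM in PM-OVA. PM-OVA replicate 1 lay inside the PM range and the others were below it. The log2 fold change was -2.38 ± 0.69 (SE, adjusted p = 0.00893). The count models gave -1.39 and -1.62 and did not call it (adjusted p = 0.105 in edgeR and 0.113 in DESeq2). Mmp8 ran from 2.70 to 15.6 RPM in PM (median 10.5) and was at 5.04, 2.70, 0.531 and 2.00 RPM in PM-OVA, a log2 fold change of -1.79 ± 0.50 (SE, adjusted p = 0.00700).

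Mmp2, Mmp9 and Timp2 did not pass here either. Mmp2 had 149 to 200 RPM in PM, and PM-OVA spread from 59.6 to 255 RPM, wider than any other group. Its log2 fold change of -0.43 (95% confidence interval -1.07 to 0.22, adjusted p = 0.221) became -0.77 and passed (adjusted p = 0.0106) without PM-OVA replicate 1, the library with 255 RPM, where 50.5% of all genes were called lower. The 6 members called with this library were also called without it. Mmp9 differed by 0.12 (95% confidence interval -0.83 to 1.06, adjusted p = 0.823) and Timp2 by -0.19 (95% confidence interval -0.51 to 0.14, adjusted p = 0.285), and the sign of Timp2 again turned with the scaling.

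Maternal PM2.5 was then compared with maternal saline in unchallenged and in challenged offspring. No member passed an adjusted p of 0.05 in PM against Sham, where 0% of all genes were called higher and 0% lower. Of the members, 2 had an unadjusted p under 0.05, as did 731 of 16795 genes in limma, and edgeR and DESeq2 also called 0 genes. Mmp14 had a mean of 129 ± 30.4 RPM (SD) in PM and 96.5 ± 13.3 RPM in Sham, a log2 fold change of 0.40 ± 0.13 (SE, limma adjusted p = 0.898). Mmp2 had 170 ± 18.5 RPM (SD) in PM and 142 ± 21.4 RPM in Sham, a difference of 0.26 ± 0.10 (SE, limma adjusted p = 0.898). Both groups overlapped for both genes, and without PM replicate 5 the differences were 0.30 and 0.23. For Mmp12 the difference was 0.15 (95% confidence interval -0.45 to 0.75).

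In PM-OVA against Sham-OVA no member passed, and 0% of all genes were called higher and 0% lower (313 genes at an unadjusted p under 0.05 in limma, 0 in edgeR after adjustment and 1 in DESeq2). Mmp12 averaged 634 ± 86.3 RPM (SD, n = 4) in PM-OVA and 706 ± 208 RPM (SD, n = 5) in Sham-OVA, a difference of -0.10 (95% confidence interval -0.69 to 0.48). Timp1 averaged 66.1 ± 45.7 and 90.4 ± 23.03 RPM, a difference of -0.64 (95% confidence interval -1.58 to 0.29). Timp3 averaged 710 ± 211 and 544 ± 164 RPM, a difference of 0.40 (95% confidence interval -0.28 to 1.08). These intervals include 0 and also differences of more than 1.5-fold for each of the 3 genes.

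The test of whether the OVA response itself differed between the maternal groups (the interaction, over all 23 libraries) called no member, and 0% of all genes were called higher and 0% lower (854 at an unadjusted p under 0.05, 0 in edgeR after adjustment and 2 in DESeq2). Mmp14 had the smallest unadjusted p of the members, with a response smaller by 0.68 ± 0.22 (SE) in log2 units in the PM offspring, and it did not pass (limma adjusted p = 0.643). Without PM replicate 5 this interaction was -0.58. For Timp1 the interaction was -0.99 (95% confidence interval -2.39 to 0.40) and for Mmp12 it was -0.25 (95% confidence interval -1.13 to 0.62). Mmp14 was called in Sham-OVA against Sham alone and Mmp8 in PM-OVA against PM alone, and neither was thus shown to differ between the maternal groups. With libraries weighted by quality the interaction called 651 genes higher (3.88%) and 3965 lower (23.6%), among them Mmp2 (-0.77, adjusted p = 0.0241) and Mmp3 (-1.96, adjusted p = 0.0404) as lower. The other alternatives called at most 6 genes in either direction and no member.

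To compare levels between genes, RPM was divided by the merged exon length in kb. This length joins every annotated exon of a gene, 7237 bp for Mmp12, 1801 bp for Mmp3 and 2425 bp for Mmp8. If a shorter transcript was the one made, the level per kb is understated. Which transcripts were made was not determined, so the order, sums and shares below hold for merged lengths only. In Sham the order was Timp2 (248 ± 28.1 RPM per kb, SD), Timp3 (182 ± 14.95), Mmp2 (42.2 ± 6.35), Mmp14 (16.2 ± 2.23) and Mmp19 (9.12 ± 0.838), each apart from the next by more than their SDs. Timp1, Mmp9, Mmp3 and Mmp8 followed at 5.22 to 3.01 RPM per kb and lay within their spread of each other. Mmp12 was last at 1.01 ± 0.531, within the spread of Mmp8. The same 5 genes led in PM, where Mmp19 (10.2 ± 2.73) and Timp1 (9.97 ± 14.4) lay within their spread.

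In Sham-OVA the order was Timp2 (210 ± 17.3 RPM per kb, SD), Timp1 (102 ± 25.9), Mmp12 (97.6 ± 28.8) and Timp3 (66.8 ± 20.1), where Timp1, Mmp12 and Timp3 each lay within the spread of the next. In PM-OVA Mmp12, Timp3 and Timp1 stood at 87.7, 87.2 and 74.5 RPM per kb, within their spread. By this measure Mmp12 moved from the last place of the 10 members to the third and the second.

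**Figure D3:**
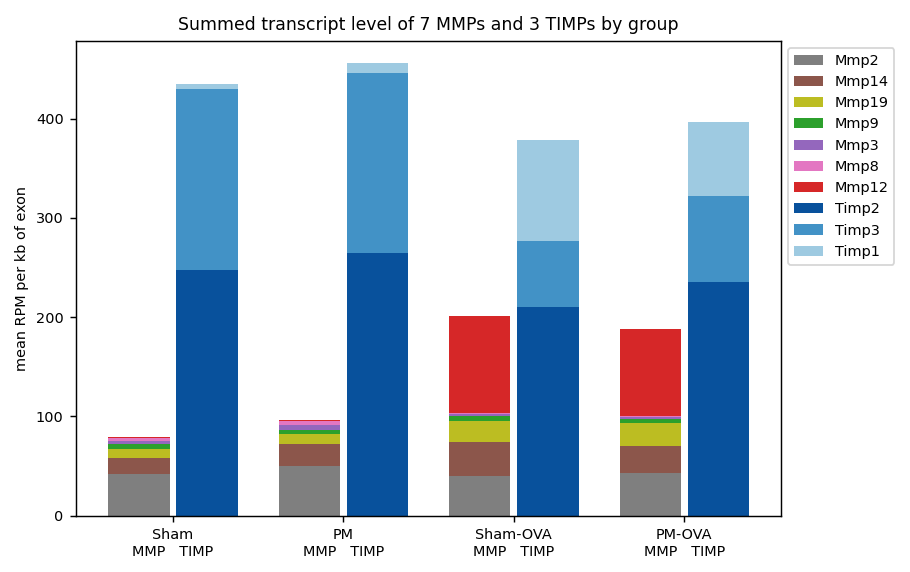
Mean level per kb of exon of the 7 MMPs (left bar of each pair) and the 3 TIMPs (right bar), stacked by gene, in the 4 groups; no error is drawn on the stacks. Mmp12 goes from a sliver in Sham and PM to 97.6 and 87.7 RPM per kb in the OVA groups, and in the Sham offspring Timp1 goes from 5.22 to 102 and Timp3 from 182 to 66.8 RPM per kb.

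Summed over the 7 MMPs, the level per kb was 79.7 ± 13.1 in Sham (SD), 96.5 ± 12.6 in PM. It was 201 ± 47.3 for Sham-OVA and 188 ± 34.1 for PM-OVA. The share of Mmp12 in that sum was 0.641% to 2.45% in the saline libraries and 36.3% to 55.3% in the OVA libraries. The sum of the 3 TIMPs moved less, from 435 ± 37.2 in Sham and 456 ± 33.3 in PM to 379 ± 30.9 (Sham-OVA) and 397 ± 47.2 (PM-OVA). The ratio of the TIMP sum to the MMP sum was 4.28 to 6.99 in the saline libraries and 1.479 to 2.82 in the OVA libraries, with no overlap. Within the TIMPs, Timp3 was 0.564 to 0.872 times the level of Timp2 in saline libraries and 0.175 to 0.527 times in OVA libraries. The sums leave out the other MMPs. In Sham and Sham-OVA, Mmp15 was at 46.4 and 34.3 RPM per kb, Mmp11 at 21.0 and 7.64 and Mmp28 at 10.2 and 0.768. These were called lower there. Mmp23 (5.55 and 8.56), Mmp13 (0.506 and 6.49), Mmp25 (0.546 and 1.39) and Mmp24 (0.0189 and 0.0837) were called higher. A ratio with these genes in the MMP sum was not computed. The sums given rest on merged exon lengths, describe chosen genes and were not tested.

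Because OVA libraries held fewer reads of long genes, each member was set beside genes of its own length. Mmp12, with 7237 bp of merged exon, rose although the longest 20% of genes (from 7145 bp) had a median of -0.99 in the first OVA comparison and -0.94 in the second. Its log2 fold changes with the trend removed were 7.35 and 7.07. Mmp14, with 5960 bp, went from 1.06 to 1.71 and from 0.38 to 1.01. Timp1 is the shortest member at 888 bp, and its fold changes were 3.99 and 2.99 with the trend removed. Mmp3 (1801 bp) and Mmp8 (2425 bp) are short, and their values moved little, to -1.61 and -1.08 in the first comparison and -2.41 and -1.70 in the second. Among OVA libraries, PM-OVA replicate 1 had the weakest shortage of long genes (a log2 difference of -0.10 between the longest and the shortest 20% of genes, against -0.59 to -0.91 in the others). It also had the highest Mmp2, Mmp3 and Timp2 and the lowest Timp1 of the 9, and the part of the shortage in these values was not tested.

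**Figure D4:**
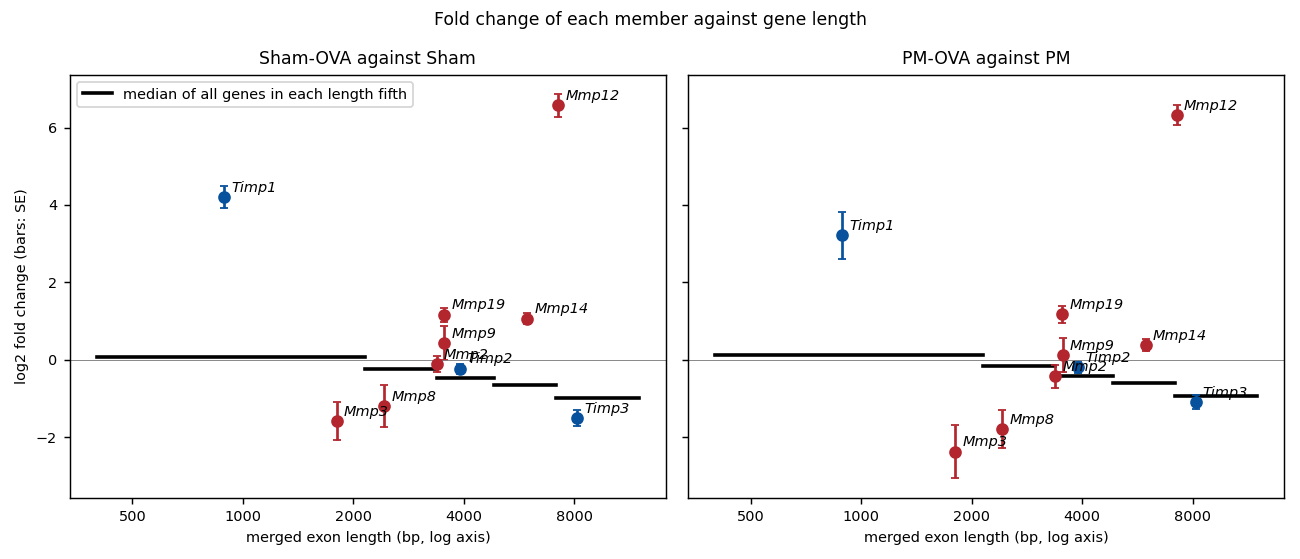
Log2 fold change of each member (MMPs red, TIMPs blue, bars are SE) against its merged exon length on a log axis, with the median of all genes in each of 5 classes of length (black); the outer classes extend beyond the drawn lines. Mmp12 and Mmp14 lie above genes of their length, Mmp3 and Mmp8 below, and Timp3 in PM-OVA against PM lies near the median of its class.

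Relations between members were computed for 4 pairs whose proteins act or occur together, in the 14 saline libraries and the 9 OVA libraries, 8 relations in all. Mmp14 and Mmp2 rose and fell together in saline libraries (Pearson r = 0.76, permutation p = 0.000960, adjusted 0.00768; Spearman rho = 0.81, permutation p = 0.000600, adjusted 0.00480). Without the 2 libraries farthest from the median of Mmp14, r was 0.65. Within Sham r was 0.78 (exact permutation p = 0.0302), and within PM it was 0.58 (exact permutation p = 0.201) and 0.08 without replicates 2 and 5. In the 9 OVA libraries r was 0.34 and rho 0.42 (exact permutation p = 0.366 and 0.270, adjusted 0.488 and 0.514). The relation thus passed in the pooled saline libraries and, unadjusted, within Sham, and was not shown within PM or in the OVA libraries. Group means were not removed in the pooled sets, so a difference between maternal groups can add to r there. The difference between saline and OVA animals was not tested.

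Timp2 and Mmp2 had r = 0.63 (permutation p = 0.0106, adjusted 0.0426) and rho = 0.53 (permutation p = 0.0513, adjusted 0.179) in saline libraries, and r = 0.46 within Sham and 0.71 within PM did not pass (exact permutation p = 0.196 and 0.0802). Within PM r was -0.21 without replicates 5 and 7. In OVA libraries r was 0.55 and rho 0.33 (exact permutation p = 0.0978 and 0.385, adjusted 0.233 and 0.514), and r was -0.40 without the 2 farthest libraries, so it rested on those. Mmp8 and Mmp9 had r = 0.44 and rho = 0.51 in saline libraries (permutation p = 0.116 and 0.0670, adjusted 0.233 and 0.179) and r = -0.07 and rho = -0.07 in OVA libraries (exact permutation p = 0.849 and 0.880, adjusted 0.849 and 0.880). Mmp12 and Timp1, the genes with the largest rises, had r = 0.42 and rho = 0.27 in saline libraries (permutation p = 0.189 and 0.353, adjusted 0.302 and 0.514), which turned to -0.16 without Sham replicate 6 and PM replicate 5. In OVA libraries r was -0.14 and rho 0.08 (exact permutation p = 0.780 and 0.843, adjusted 0.849 and 0.880). Among challenged animals, a library with more Mmp12 was thus not shown to have more Timp1.

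The genes most like a member were sought among 11715 genes of at least 5 RPM on average, by the correlation of log2(RPM + 0.5) over the 23 libraries with group means removed. For Mmp12 they were Atp6v1a (0.81), a subunit of the vacuolar proton pump, Retnla (0.81), a secreted product of alternatively activated macrophages, and Soat1 (0.78), which makes cholesterol esters. For Timp1 they were Saa3 (0.88), an acute phase protein, Lig1 (0.87), a DNA ligase of replication, and Knstrn (0.84), a spindle protein. For Mmp2 they were Afap1l2 (0.95), Hadha (0.94) and Gak (0.94), and for Timp3 they were Ppp1r26 (0.95), Foxa1 (0.94) and Arl13b (0.94). These likenesses share depth and the shortage of long genes among their points, and no test was made of them.

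The rest of the family was counted from lists. Of 15 other MMPs in the table, 10 passed the filter, and Mmp1b, Mmp7, Mmp10, Mmp20 and Mmp21 were listed at 0 in every library. In Sham-OVA against Sham 4 of the 10 rose and 3 fell, beside 20.6% and 47.5% of all genes. In PM-OVA against PM 3 rose and 5 fell, beside 20.1% and 45.2%. The median log2 fold changes of the 10 were -0.30 and -0.43, where those of all genes were -0.48 and -0.43. Mmp13 (collagenase-3) went from 0.462 to 2.09 RPM in Sham to 8.84 to 26.1 RPM in Sham-OVA, a log2 fold change of 3.24 (adjusted p = 5.60e-07), and rose by 2.73 in PM-OVA against PM (adjusted p = 1.74e-05). Mmp28 (epilysin) ran from 17.9 to 57.3 RPM in Sham and from 0 to 4.89 RPM in Sham-OVA, a log2 fold change of -3.82 (adjusted p = 1.15e-05), and was at -3.67 in PM-OVA against PM (adjusted p = 0.000640). Neither gene overlapped between saline and OVA libraries in these comparisons.

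Mmp11 fell in both comparisons, with log2 fold changes of -1.60 and -1.61 (adjusted p = 0.000486 and 0.00419), and Mmp23 rose in both, by 0.62 and 0.83 (adjusted p = 0.00354 and 0.00213). Mmp15, a membrane-type MMP, had log2 fold changes of -0.41 and -0.42 (adjusted p = 0.0204 and 0.0112), a size near the median of all genes, and its sign turned under other scalings. Mmp25 rose in Sham-OVA (1.168, adjusted p = 0.00162) and missed in PM-OVA (0.58, adjusted p = 0.0585). Mmp24, at most 1.09 RPM, was called higher in both (0.57 and 0.86, adjusted p = 0.0397 and 0.00382). Mmp16 (-0.25 and -1.08) and Mmp17 (-0.34 and -0.87) were called lower in PM-OVA only (adjusted p = 0.00190 and 0.0454), differences that did not pass the interaction test, and Mmp17 was called under none of 6 other settings. Mmp27 was called in neither (-0.53 and -0.44). Mmp11 lies opposite to Chchd10 (45.7 to 191 RPM) and Mmp24 opposite to BC029722 (54.2 to 105 RPM). Mmp11, Mmp13, Mmp23 and Mmp28 kept these directions and calls under each of 6 other scalings, count models and library choices.

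Timp4, the remaining inhibitor, was at 1.96 to 4.33 RPM in Sham and 1.64 to 3.42 RPM in PM. It was at 0.764 to 3.73 RPM in Sham-OVA and 2.22 to 8.35 RPM in PM-OVA. It was called higher in PM-OVA against PM (0.98 ± 0.31 SE, adjusted p = 0.0140) and was not called in Sham-OVA against Sham (-0.62 ± 0.27 SE, adjusted p = 0.0571). The interaction was 1.59 ± 0.42 (SE) with an unadjusted p of 0.000843 in limma and an adjusted p of 0.592, so it did not pass. Timp4 lies on the strand opposite to Syn2, which had 9.53 to 31.0 RPM, more than Timp4 itself.

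The chromosome 9 cluster spans 427 kb from 7272514 to 7699585 and holds 10 Mmp genes in the annotation, of which 9 were in the table and 5 were tested. Along the chromosome Mmp13 and Mmp12 come first, and both rose. Mmp3 and Mmp8, further along, had negative log2 fold changes in both comparisons, and Mmp27 (0.226 RPM in Sham-OVA, 0.529 in Sham) was not called. Between and beyond them Mmp1b, Mmp10, Mmp20 and Mmp7 were at 0. The genes that rose and those with lower values were thus not interleaved.

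**Figure D5:**
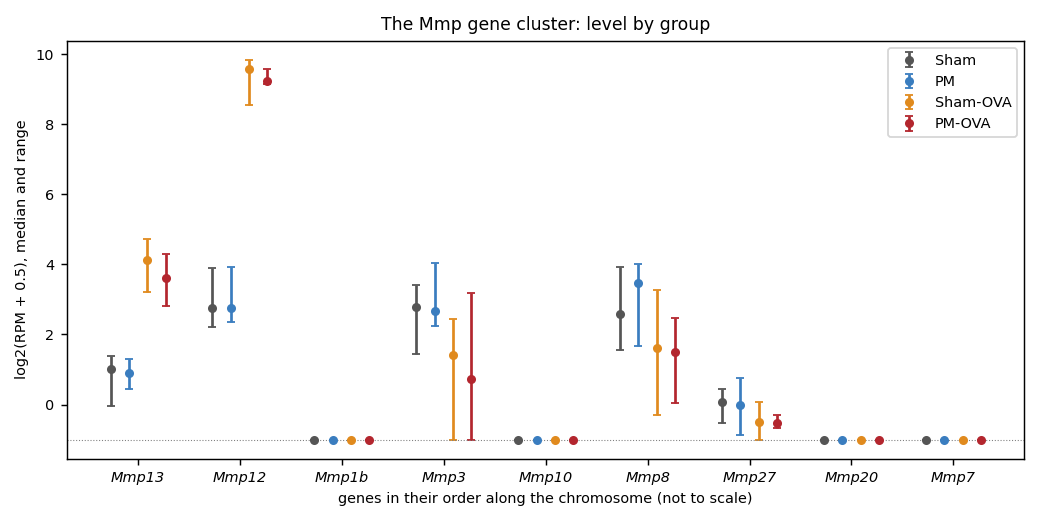
Median and range of log2(RPM + 0.5) by group for the 9 genes of the cluster that were in the table, in chromosome order and not to scale; the dotted line is 0 RPM. Mmp13 and Mmp12 are higher in both OVA groups, Mmp3 and Mmp8 have lower medians there, and 4 genes lie on the dotted line.

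Genes that activate or restrain MMPs moved in both directions. Of 15 tested, 6 rose and 5 fell in Sham-OVA against Sham, beside 20.6% and 47.5% of all genes. In PM-OVA against PM 5 rose and 5 fell, beside 20.1% and 45.2%. Lcn2 (lipocalin-2), which binds MMP9, rose from a mean of 56.8 RPM in Sham to 451 in Sham-OVA (log2 fold change 3.01, adjusted p = 8.93e-09) and by 2.57 in PM-OVA against PM (adjusted p = 0.00013). Reck, a membrane-anchored inhibitor of several MMPs, fell from 92.1 to 26.0 RPM (-1.92, adjusted p = 1.15e-05) with a log2 fold change of -1.71 in the PM offspring (adjusted p = 7.61e-05). With the length trend removed 8 of the 15 were called higher in Sham-OVA against Sham and 3 lower, where 32.3% of all genes were higher and 32.9% lower. Under median-of-ratios scaling it was 9 and 3, beside 29.2% and 38.1%. For PM-OVA against PM the counts were 7 and 3 with the length trend removed, beside 31% and 30.8% of all genes. Under median-of-ratios scaling they were 6 and 3 there, beside 28.9% and 35.7%.

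Of 14 ADAM and ADAMTS proteases, 2 rose and 6 fell in Sham-OVA against Sham and 3 rose and 7 fell in PM-OVA against PM, beside the 20.6% and 47.5%, and the 20.1% and 45.2%, of all genes. With the length trend removed the list had 6 higher and 3 lower, and 5 higher and 2 lower. The split of all genes also moved then, to 32.3% higher and 32.9% lower in the first comparison and to 31% and 30.8% in the second. Adam8, a protease of leukocytes, rose from 12.5 to 65.9 RPM (2.21, adjusted p = 3.76e-05) and by 2.15 in the PM offspring (adjusted p = 5.03e-05). Adamts1 fell from 232 to 71.7 RPM (-1.69, adjusted p = 1.14e-05) with -1.56 in the PM offspring (adjusted p = 0.000401). Of 8 tested genes for other matrix-degrading proteases 6 rose in each comparison and none fell, and their median log2 fold changes were 1.45 and 1.10. Cathepsin K (Ctsk) rose from 19.2 to 103 RPM (2.32, adjusted p = 1.74e-06) and by 2.17 (adjusted p = 1.44e-05), and cathepsin S (Ctss) rose from 112 to 479 RPM (2.05, adjusted p = 2.86e-05) and by 1.60 (adjusted p = 4.35e-06).

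Of 12 matrix proteins that MMPs cut, 2 rose and 5 fell in Sham-OVA against Sham and 1 rose and 5 fell in PM-OVA against PM, against the same shares of all genes as above (20.6% and 47.5%, then 20.1% and 45.2%). With the length trend removed the counts were 6 higher and 0 lower, and 3 higher and 3 lower, where 32.3% and 32.9%, then 31% and 30.8%, of all genes were called. Spp1 (osteopontin) rose from 34.7 to 257 RPM (2.78, adjusted p = 2.85e-06) and by 1.47 in the PM offspring (adjusted p = 0.000377). Eln, the elastin that MMP12 digests, rose in Sham-OVA against Sham (1.36, adjusted p = 0.00504) and was not called in PM-OVA against PM (-0.11, adjusted p = 0.813). Its interaction did not pass (-1.47, limma adjusted p = 0.736).

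In whole lung, fewer cells of a type and less RNA per cell cannot be told apart, so markers of cells that make these genes are given beside them. Their counts stand beside 20.6% of all genes called higher and 47.5% lower in Sham-OVA against Sham. The shares were 20.1% and 45.2% in PM-OVA against PM. Of 9 markers of interstitial or recruited macrophages 8 were called higher in each OVA comparison and none lower. Their summed level ran from 761 to 1501 RPM in the saline libraries and from 2909 to 4720 RPM in the OVA libraries, beside Mmp12, Mmp14 and Mmp19. Of 7 tested alveolar macrophage markers 2 were called higher and 4 lower in each comparison, with sums of 85.3 to 300 RPM in saline and 211 to 694 RPM in OVA libraries, and Ear1 was at 0 in PM and both OVA groups. Car4, which capillary endothelium also expresses, made up 74.7% to 95.7% of these sums and was called higher with Chil3, while Marco, Fabp1, Siglecf and Pparg were called lower. Without Car4 the sums were 14.9 to 47.4 RPM in the saline and 25.5 to 59.01 RPM in the OVA libraries, with overlap. Of 6 tested eosinophil markers 5 were higher and 1 lower in each, with Epx and Ear6 at 0 in the saline groups and sums of 4.27 to 22.3 RPM there and 28.0 to 106 RPM in OVA libraries.

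Of 10 neutrophil markers 5 were higher and 2 lower in Sham-OVA against Sham, and 6 higher and 2 lower in PM-OVA against PM. Their sums ran from 68.8 to 681 RPM in saline and from 219 to 840 RPM in OVA libraries, with overlap, and none was at 0 throughout a group. This stands beside Mmp8, Mmp9 and their wide spread in Sham. The markers called higher in both comparisons were Retnlg (4.23 and 3.38), Ltf (3.57 and 3.39), Camp (2.64 and 3.23), Ngp (1.85 and 1.97) and Mpo (0.89 and 0.90), with Ly6g (0.80 and 0.92) called in PM-OVA against PM alone. Cxcr2 (-2.22 and -2.73) and Csf3r (-1.75 and -1.89), both receptors, were called lower in both, and S100a8 (-0.34 and -0.44) and S100a9 (0.19 and -0.24) in neither. Of 8 fibroblast markers none rose, and 5 and 6 fell, with sums of 3897 to 8517 RPM in saline and 1368 to 5019 RPM in OVA libraries, beside Timp3, Mmp3 and Mmp2. In edgeR 4 of the 8 fell in each comparison, where 33.8% and 30.3% of all genes were called lower. Of 5 tested markers each, lung epithelium had 2 higher and none lower and capillary endothelium 1 higher and 2 lower in each comparison. Smooth muscle had 4 of 6 higher and 2 lower, then 3 and 1, mesothelium 1 of 5 higher and 1 lower in each, cardiac muscle 3 of 6 lower in each, and adipose tissue 1 of 5 higher and 2 lower, then 4 lower. The shares of cardiac muscle and capillary endothelial markers called lower were near the 47.5% and 45.2% of all genes. The part of any of these cells in the changes of the MMPs and TIMPs was not tested.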

How the data were processed

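Adapter removal with Trimmomatic, alignment with Bowtie2 (GRCm38) and per-gene quantification in SeqMonk were done by the authors, who deposited RPM (reads per 1000000, not divided by gene length) for 35322 genes. The table is named after RPKM, but in each library 100% of values could be divided by 1 common number to give whole reads (tolerance 0.01), which were used as counts in the alternatives. The steps from reads to genes were not repeated.

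Values were transformed to log2(RPM + 0.5), which understates fold changes of low genes. Genes that reached 0.5 RPM in 4 or more of 23 libraries were tested in limma 3.58.1 (R 4.3.3) with a variance trend, 2 groups at a time, or all 4 for the interaction, with Benjamini-Hochberg adjustment over all genes. edgeR 4.0.16 and DESeq2 1.42.0 on recovered reads were alternatives, with other scalings, filters, pseudocounts, a fit to gene length and omission of each library. The fits were tested on simulated data. Exon lengths were from the GENCODE annotation of GRCm38. Depth was 2298645 to 17393579 reads on genes, and precision of low genes is lowest in the shallow OVA libraries.

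All members were named, with the family genes that passed the filter, and of each other list the 2 called genes with the largest change in Sham-OVA against Sham. The neutrophil and alveolar macrophage markers were named after their values were seen. The members and lists were chosen with earlier results of these data known.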

Additional observations from a re-analysis of the deposited data

Results flagged for a closer look

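In 5 of 40 sets of libraries (10 members in 4 groups), 1 library lay far from the others of its group by Dixon's criterion on log2(RPM + 0.5), which chance alone gives in about 1 in 20 sets. In PM replicate 5 Timp1 was at 37.9 RPM, where the other 6 PM libraries had 3.07 to 4.61. In Sham-OVA replicate 5 Timp1 was at 51.6 RPM, where the others had 86.7 to 105. Mmp2 was at 101 RPM in Sham replicate 3, where the other Sham libraries had 136 to 170. In the shallow Sham-OVA replicate 3 Mmp19 was at 41.0 RPM, where the others had 73.5 to 89.7. Timp2 was at 935 RPM in Sham-OVA replicate 1, where the others had 774 to 816. No member passed the interaction test.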

How the results depend on the processing

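Mmp12, Timp1, Mmp19 and Timp3 kept their direction under every alternative in both OVA comparisons, and of these 4 genes only Timp3 lost its call, in PM-OVA against PM with the length trend removed (-0.28). At the study's threshold 2 members were called higher and 0 lower in Sham-OVA against Sham, and 1 and 0 in PM-OVA against PM, in the main fit. In the first comparison this was 4 and 1 in DESeq2 and with library weights. It was 4 and 0 with quantile scaling, the length trend removed and edgeR. It was 3 and 1 without Sham-OVA replicate 3, and 1 and 0 with the block or with no filter. In the second comparison it was 2 and 0 in DESeq2 and 0 and 0 with the block. Weighting libraries by quality called 2 members, Mmp2 and Mmp3, lower in the interaction, where 23.6% of all genes were called lower and 3.88% higher. The omission of 3 libraries was chosen after seeing the data. Replicate numbers did not pair animals, and with the replicate block Mmp8 was called in Sham-OVA against Sham (-1.44), Mmp3 lost its call in PM-OVA against PM (-2.16) and Mmp9 there was -0.083.

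For the members named here, which had no call as reported, the sign turned under the settings given, and the cause was not tested. Members without a reported call that kept 1 sign under every alternative included Mmp8 (-1.63 to -0.42) and Mmp9 (0.18 to 0.82) in Sham-OVA against Sham, Mmp14 (0.31 to 1.01) in PM-OVA against PM, and Mmp2, Mmp3, Mmp8, Mmp14 and Mmp19 in PM against Sham. In Sham-OVA against Sham, Mmp2 was 0.16 with quantile scaling, 0.26 with median-of-ratios scaling, 0.18 with the length trend removed, 0.066 without the 3 libraries, 0.36 in edgeR (adjusted p = 0.048, the only call) and 0.28 in DESeq2, and Timp2 was 0.14 with median-of-ratios scaling, 0.16 with the length trend removed, 0.24 in edgeR and 0.16 in DESeq2. In PM-OVA against PM, Mmp2 was 0.059 in edgeR and 0.054 in DESeq2, Mmp9 was -0.17 without the 3 libraries, and Timp2 was 0.18, 0.19, 0.21 and 0.22 with median-of-ratios scaling, the length trend removed, edgeR and DESeq2. In PM against Sham, Mmp9 was -0.12 in both count models, Mmp12 -0.019 without the 3 libraries, Timp1 -0.017 with library weights, -0.17 without the 3 libraries and -0.21 in DESeq2, Timp2 -0.015 with quantile scaling and Timp3 0.023 with library weights. In PM-OVA against Sham-OVA, Mmp2 was 0.013 in DESeq2, Mmp3 0.081 in edgeR and 0.11 in DESeq2, and Mmp19 -0.094 with library weights and -0.061 without the 3 libraries. In the interaction, Mmp19 was -0.27, -0.13, -0.020 and -0.034 with library weights, without the 3 libraries, in edgeR and in DESeq2, and Timp2 and Timp3 were -0.026 and -0.087 with library weights.

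Leaving out 1 library at a time gave 4 members higher and 2 to 3 lower in Sham-OVA against Sham, and 3 to 4 higher and 3 to 4 lower in PM-OVA against PM. In the same fits 19.03% to 25.1% of all genes were higher and 45.4% to 48.5% lower in the first, and 18.5% to 21.5% and 38.6% to 50.5% in the second. Ranges that crossed 0 were those of Mmp2 (-0.22 to 0.074) in the first of these and Mmp9 (-0.17 to 0.37) in the second. In PM against Sham they were those of Mmp9 (-0.16 to 0.35), Mmp12 (-0.0077 to 0.33), Timp1 (-0.092 to 0.52) and Timp3 (-0.040 to 0.023). In PM-OVA against Sham-OVA they were those of Mmp2 (-0.40 to 0.30), Mmp3 (-1.22 to 0.18), Mmp8 (-0.60 to 0.30), Mmp12 (-0.31 to 0.0093) and Mmp19 (-0.061 to 0.24), and in the interaction those of Mmp2 (-0.66 to 0.041), Mmp19 (-0.18 to 0.12) and Timp2 (-0.080 to 0.11). Of the relations, Mmp14 with Mmp2 was 0.58 within PM, Timp2 with Mmp2 was 0.46 within Sham, 0.71 within PM and -0.40 in OVA libraries without the 2 farthest, and Mmp12 with Timp1 was -0.16 in saline libraries without the 2 farthest, -0.16 within Sham and 0.021 in OVA libraries without the 2 farthest.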
